A study of Mus musculus with 59 samples.

Results

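The lungs of mice given benzo(b)fluoranthene (BbF) at 50 mg/kg-bw/day, the medium of its 3 doses, were compared with the lungs of mice given the vehicle. BbF is a polycyclic aromatic hydrocarbon, a combustion product made of fused aromatic rings. All arrays labelled as medium-dose lung (5) and vehicle lung (5) were used, which is 10 of the 59 arrays of the series. The animals were Muta™Mouse males about 16 weeks of age, a transgenic strain that carries a bacterial reporter for mutation assays in every cell, so treated and control mice share the transgene. They were gavaged daily for 28 days with BbF in olive oil or with olive oil alone, and tissue was taken 72 h after the last dose. Each array held the RNA of random sections of the right lung of 1 mouse in the Cy5 dye and a reference RNA pooled from mouse cell lines in the Cy3 dye, and dyes were not swapped. The compound is BbF by the titles and the treatment protocol. Another label and the design text have benz(a)anthracene in its place.

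Several gene programmes are known to respond to polycyclic aromatic hydrocarbons in lung. The aryl hydrocarbon receptor (AhR) binds these compounds and switches on cytochrome P450 enzymes of family 1, which oxidize them to products that bind DNA. DNA lesions activate p53, a transcription factor that raises inhibitors of the cell cycle, proteins of cell death and repair enzymes. Genes of mitosis are transcribed in dividing cells, and most of them are silent in the resting cells that make up most of the adult lung. Lung cells also run a circadian clock, in which Arntl and Clock drive daily output genes such as Dbp, and Nfil3 acts against Dbp.

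A value below is a log2 ratio of lung RNA to reference RNA on the same array, and a log2 change is the mean of the medium-dose mice minus the mean of the vehicle mice. The number of arrays limits the precision of every value. The 12 largest increases and 12 largest decreases named below were required to have groups that do not overlap, so their separation is no separate result. The markers of lung stood high on all 10 arrays: the surfactant gene Sftpc had log2 ratios of 6.98 to 7.33 in vehicle and 6.93 to 7.72 in treated lungs, and the club cell gene Scgb1a1 had 7.93 to 8.35 and 7.84 to 8.34. None of the 12 alveolar type II markers passed the test, and their median change was 0.13. The array of medium-dose mouse 13 stood apart: 68.8% of its probes were well above background in Cy5, against 44.8% to 49.7% on the vehicle arrays and 48.0% to 50.1% on the other medium-dose arrays. Its reference channel was raised as well, at 77.0%. The mean share was 46.7% ± 1.97 (SD, n = 5) in vehicle and 52.9% ± 8.96 (SD, n = 5) at the medium dose, a difference of 6.15 percentage points, and of 2.16 points without mouse 13. No test is given here, since that array was singled out by its share.

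**Figure D1:**
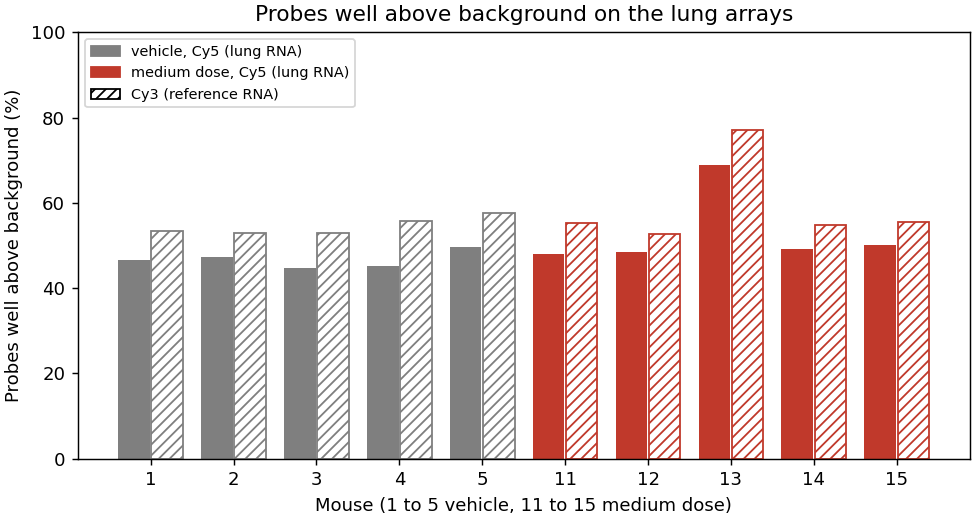
Share of probes well above background (%) in the lung channel Cy5 (filled bars) and the reference channel Cy3 (hatched bars) on each lung array of the 5 vehicle mice (grey) and the 5 medium-dose mice (red). Mouse 13 has the tallest bar in both channels, at 68.8% and 77.0%.

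Markers of tissue beside the lung proper varied among the sections. Heart and skeletal muscle markers (19) had a mean log2 ratio between -0.12 and 2.62 in the vehicle mice and between -0.10 and 1.49 in the medium-dose mice, with a median change of -0.89, and no member passed the test. Adipocyte markers (10) ranged from 0.70 to 3.64 and from 0.66 to 1.42 in the same order, all 10 were lower on average, their median change was -1.34, and again none passed. Adipoq, the adipocyte hormone, had log2 ratios of 2.88, 3.86, 0.00, 1.86 and 1.02 in vehicle mice 1 to 5 and between -0.12 and 0.42 in the treated mice. The part of such tissue in the results below was not tested.

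At the medium dose 237 of 37163 genes or transcripts were differentially expressed (DEGs), which required an adjusted p of 0.05 or less in limma (Benjamini-Hochberg over all probes) and a change of 1.5-fold or more. Of these, 182 rose and 55 fell, that is 0.49% and 0.148% of all genes tested (0.638% in either direction). Every count of called list members below stands against these shares. The decreases numbered 26, 30 and 28 without vehicle mouse 1, medium-dose mouse 14 and medium-dose mouse 15, respectively. The increases were also the larger changes: 53 genes rose 2-fold or more, and 5 fell by as much. The increases included p53 targets, genes of mitosis and the output of the circadian clock, and the decreases held the clock gene Arntl, the carbonic anhydrase Car14 and the sodium-coupled carboxylate transporter Slc5a12. In bulk tissue such as this, fewer cells of a type and less RNA per cell cannot be told apart. Of the 237 DEGs, 195 had all 5 medium-dose mice on the same side of all 5 vehicle mice, which their choice on these arrays favours. Of all genes 3.9% did (2.13% above and 1.77% below). When each array was centred on its median in place of loess, 364 genes rose (0.979%) and 5 fell (0.0135%), of which 169 and 5 were shared with the calls above, and the median change of all genes moved from -0.00 to 0.07.

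Mouse 13 was the medium-dose mouse nearest to the vehicle mice in 98 of the 237 DEGs, 85 of them increases, whereas the other medium-dose mice were nearest in 24 to 53. Without mouse 13 there were 338 DEGs (267 up and 71 down; 0.91% of all genes), which held 170 of the 182 increases and 43 of the 55 decreases. The arrays lay on 3 slides, each with both groups but unbalanced. Slide 1 held vehicle mice 1 and 2 and medium-dose mouse 12, and slide 2 vehicle mice 3 and 4 and medium-dose mouse 13. Slide 3 held vehicle mouse 5 and medium-dose mice 11, 14 and 15. Every change within a slide therefore rests on 1 array of either the vehicle or the medium dose. Within each slide all 237 DEGs kept their sign, which their choice on the pooled difference favours, and 102 reached 1.5-fold within every slide. With the slide as a block in the fit 254 genes were called, 182 up and 72 down.

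**Figure D2:**
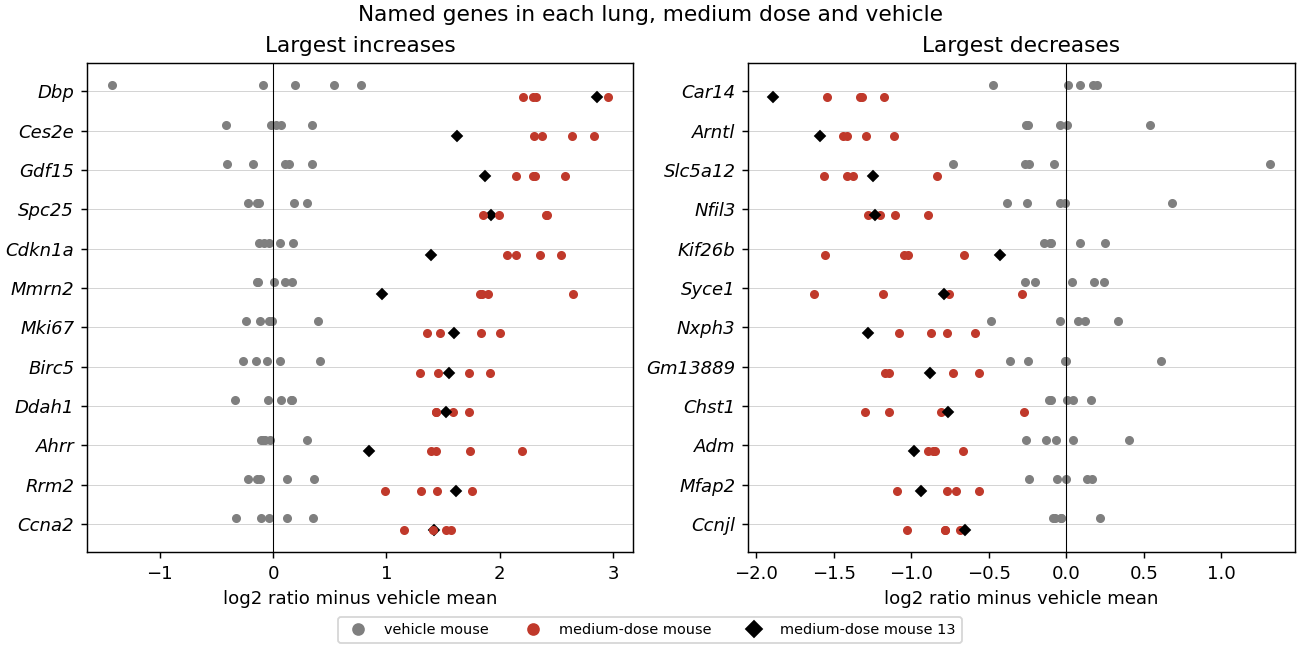
Log2 ratio of each lung minus the mean of the vehicle lungs (x axis) for the 12 largest increases (left) and the 12 largest decreases (right) chosen by the naming rule, for the 5 vehicle mice (grey), the 5 medium-dose mice (red) and medium-dose mouse 13 (black diamond). The groups do not overlap for any gene shown, which the rule required, and mouse 13 lies nearest to vehicle for Ces2e, Gdf15, Cdkn1a, Mmrn2, Ahrr, Kif26b and Ccnjl.

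Targets of p53 rose. Of 16 targets for arrest and feedback, 5 rose and none fell, against 0.49% of all genes that rose, and the median change of the 16 was 0.42 (all genes, -0.00). Cdkn1a encodes the cyclin-dependent kinase inhibitor p21. Its log2 ratios were -0.83, -0.79, -0.69, -0.57 and -0.88 in vehicle mice 1 to 5, and 1.31, 1.39, 0.64, 1.60 and 1.79 in medium-dose mice 11 to 15. Every treated mouse lay above every vehicle mouse, with mouse 13 the lowest of them. The change was 2.10 on the log2 scale (SE 0.20, limma adjusted p = 1.62e-05), or 4.28-fold, and the brighter of its probes, also called, changed by 1.64. The probe of the larger change was well above background on 1 of the 5 vehicle arrays and on all 5 treated ones. Gdf15, a secreted stress hormone of the TGF-beta family, had -2.78, -2.23, -2.28, -2.56 and -2.04 in the vehicle mice and -0.09, -0.24, -0.51, -0.07 and 0.19 in the treated mice. The groups lay far apart, and the mean rose from -2.38 ± 0.29 to -0.14 ± 0.26 (SD, n = 5 each), 4.71-fold (limma adjusted p = 2.07e-04). Trp53inp1, which helps p53 induce cell death and autophagy, rose by 1.02 on the log2 scale (SE 0.11), and Ccng1, a cyclin of the p53 feedback loop, by 1.03 (SE 0.16). The fifth increase was Zmat3, an RNA-binding target of p53, at 0.67 (named after its value was seen). The p53 ubiquitin ligase Mdm2 (likewise named afterwards) had 0.20 ± 0.11 in vehicle and 0.39 ± 0.07 at the medium dose (SD, n = 5 each), a change of 0.19 that did not pass (adjusted p = 0.328).

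Among 22 p53 targets for apoptosis and repair, 5 rose and none fell, against 0.49% of all genes that rose. The median of the 22 was 0.20. Bax, which permeabilizes mitochondria in apoptosis, had log2 ratios of -1.10, -1.07, -0.88, -0.91 and -0.64 in the vehicle mice and 0.43, 0.29, 0.15, 0.49 and 0.52 in the treated mice. No treated mouse came near the vehicle range, and the increase was 1.30 (SE 0.13, limma adjusted p = 2.31e-05). Aen, an exonuclease active in apoptosis, rose by 0.97 and Phlda3, an inhibitor of Akt signalling, by 1.14. Ckap2, a protein of the mitotic spindle, rose by 1.30, and over the doses it ran with the mitotic genes (below). Tnfrsf10b, a death receptor, rose by 0.78 (named after its value was seen). Bbc3, the apoptosis inducer Puma, changed by 0.18 (adjusted p = 0.451).

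Genes of mitosis rose together. Of 30 genes for mitosis and the kinetochore, 14 rose and none fell, against 0.49% of all genes that rose. On average 27 of the 30 were higher, and the median change was 0.52. Their mean log2 ratio was -3.00 ± 0.13 in vehicle mice and -2.40 ± 0.12 in medium-dose mice (SD, n = 5 each), and the ranges, -3.13 to -2.83 and -2.55 to -2.25, did not overlap. Spc25, a subunit of the Ndc80 kinetochore complex that is outside this list, had the largest change among the named mitotic genes. Its values were -4.30, -3.89, -4.22, -3.78 and -4.20 in vehicle mice and -1.67, -1.66, -2.15, -2.09 and -2.23 in medium-dose mice. The 5 treated lungs lay close together and far above the controls, and the gene rose by 2.12 (SE 0.16, limma adjusted p = 5.93e-07), or 4.34-fold. Mki67, the proliferation marker Ki-67, had -4.37, -4.45, -4.57, -3.94 and -4.34 in vehicle and -2.33, -2.50, -2.74, -2.86 and -2.98 at the medium dose, a rise of 1.65 in which mouse 13 lay in the middle of the treated mice. Birc5 (survivin, of the chromosomal passenger complex) rose by 1.59, Ccna2 (cyclin A2) by 1.42 and Cenpe, a kinetochore motor, by 1.16. The count was 14 without mouse 13 too, 14 with the slide as a block and 15 with median centring.

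Of the DNA replication genes, 4 rose. Rrm2, the subunit of ribonucleotide reductase that limits deoxynucleotide supply, had -4.50, -4.43, -4.16, -3.92 and -4.39 in vehicle mice and -2.83, -2.52, -2.67, -2.97 and -3.29 in treated mice, a separation without overlap and a rise of 1.42 (SE 0.20, limma adjusted p = 6.26e-04). Besides it, Pcna (the replication clamp) rose by 0.66, Mcm2 by 0.86 and Mcm7 by 0.65, the last pair being subunits of the replicative helicase. These 4 made up the increases among 27 members, against 0.49% of all genes that rose. Of the members 26 were higher on average, with a median of 0.43. The count depended on the processing, with 6 increases without mouse 13, 6 with the slide as a block and 9 with median centring. The median of 20 genes for damage checkpoints and recombination was 0.12. The checkpoint kinase Atm changed by 0.14 (adjusted p = 0.414).

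**Figure D3:**
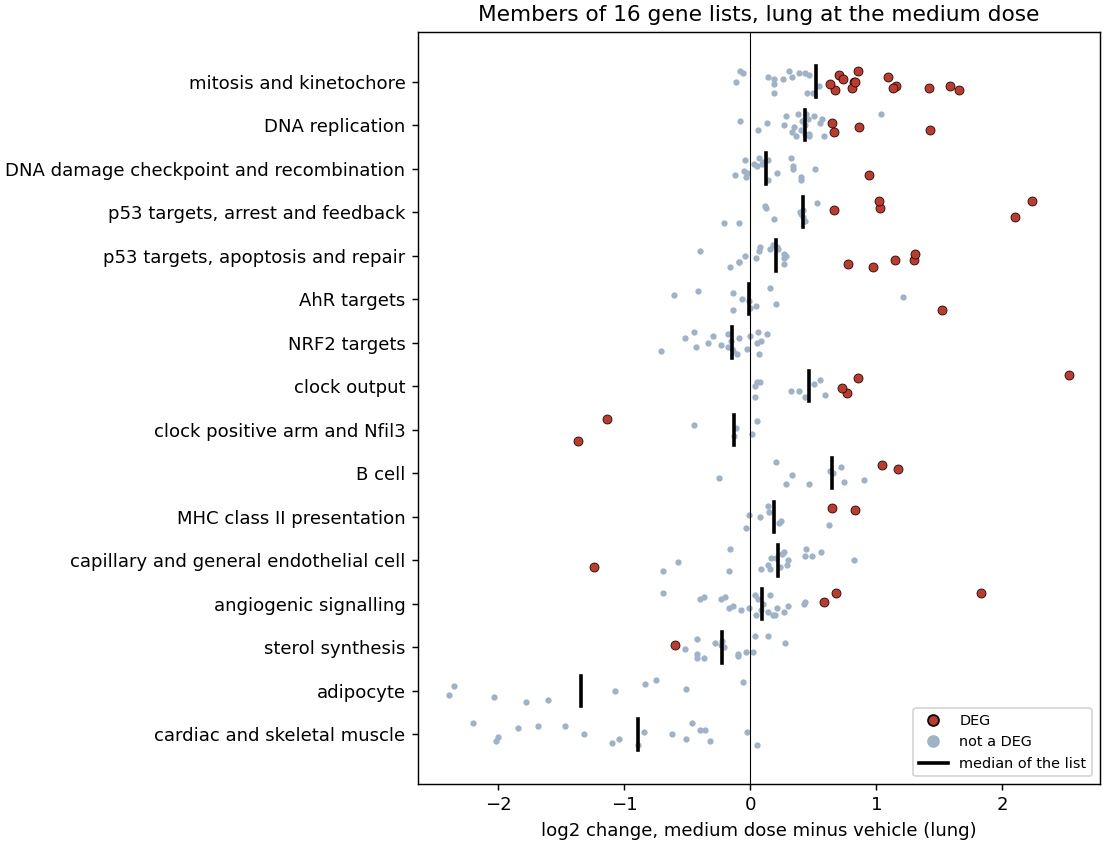
Log2 change at the medium dose (x axis) of the members of 16 gene lists (y axis), with DEGs in red and other members in blue; a dot is a DEG's called probe or, for other genes, the brightest probe. Black bars mark each list's median over brightest probes, from 0.64 for B cell markers and 0.52 for mitosis down to -1.34 for adipocyte markers, none of which passed the test.

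Promoters of many mitotic genes are known to carry CCAAT boxes and the cell cycle homology element TTTGAA. The 110 bases just before the transcription start, from RefSeq GRCm38.p6 and written in the direction of the gene, are shown for the list members Ccnb2 (cyclin B2), Cdc20 (activator of the anaphase-promoting complex) and Prc1 (midzone crosslinker), and for Spc25, the largest mitotic increase. Capitals mark CCAAT and TTTGAA on either strand. The windows are chr9:70421555-70421664 (minus strand), chr4:118437344-118437453 (minus), chr7:80294366-80294475 (plus) and chr2:69206214-69206323 (minus), in that order.
Ccnb2: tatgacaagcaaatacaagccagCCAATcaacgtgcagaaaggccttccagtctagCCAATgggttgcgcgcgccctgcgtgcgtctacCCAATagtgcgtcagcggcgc
Cdc20: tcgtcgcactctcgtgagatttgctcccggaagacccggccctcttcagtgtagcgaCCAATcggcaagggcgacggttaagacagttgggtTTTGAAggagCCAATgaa
Prc1: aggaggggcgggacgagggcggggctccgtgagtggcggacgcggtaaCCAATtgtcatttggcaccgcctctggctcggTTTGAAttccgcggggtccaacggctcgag
Spc25: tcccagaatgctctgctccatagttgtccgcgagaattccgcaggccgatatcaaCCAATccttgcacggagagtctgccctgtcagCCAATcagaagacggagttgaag

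Among the 27 windows of 250 bases before the start that were found for 26 of the 30 mitotic genes, 81.5% held CCAAT and 33.3% held TTTGAA on either strand, against 33.8% and 16% of all 32851 such windows. Both motifs together stood in 29.6% and in 5.55% of windows. CCAAT also stood in 70.6% of windows of p53 targets for arrest and feedback, 60% of clock output and 52% of DNA replication. Its share was 44.4% for the clock's positive arm and 18.2% for AhR targets, and that of TTTGAA was 0% to 18.2% over these lists. For the DEGs with a symbol, CCAAT was found in 52.6% of the windows of those that rose and in 32.4% of those that fell. A match is a description of the letters and not of binding. The 4 windows above belong to genes that rose by 0.82 (Ccnb2), 0.67 (Cdc20), 0.86 (Prc1) and 2.12 (Spc25) on the log2 scale. Ccnb2, Cdc20 and Prc1 were picked as examples outside the naming rule, and another window of Prc1 held CCAAT without TTTGAA. In the 250 bases before the start, Birc5 held neither motif, Cenpe held CCAAT alone, and Mki67 held CCAAT and TTTGAA.

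Of 12 AhR targets, 1 rose and none fell, and their median change was -0.01. The gene called was Ahrr, the repressor that limits AhR signalling, with log2 ratios of -0.52, -0.14, -0.54, -0.46 and -0.51 in vehicle mice and 0.96, 1.30, 0.41, 1.00 and 1.76 in medium-dose mice. The groups did not overlap, and mouse 13 was again the lowest of the treated mice. The change was 1.52 (SE 0.39) with a limma adjusted p of 0.0494, just inside the threshold. The call was lost in 12 of 17 alternatives, over all of which the change was 1.23 to 1.69 and the adjusted p 0.00133 to 0.139. Among those that lost it were median centring (0.0588) and the slide as a block (0.0781), so that no AhR target was called with either. The probe was well above background on 1 of the 5 vehicle arrays, and a second probe of the gene changed by 0.05. Cyp1a1, the classical AhR target, varied widely in both groups. Its values were 2.97, 8.39, 2.06, 2.81 and 2.64 in vehicle mice 1 to 5, and 2.54, 5.47, 1.80, 2.89 and 7.18 in medium-dose mice 11 to 15. Vehicle mouse 2 had the highest value of all, the groups overlapped fully, and the mean change was 0.20 (SE 1.13, adjusted p = 0.968). Cyp1b1 had a mean of -1.12 ± 0.75 in vehicle and 0.09 ± 0.42 at the medium dose (SD, n = 5 each), a change of 1.21 with an adjusted p of 0.457. Cyp1a2 was not well above background on any of these arrays, and Nqo1 and Tiparp changed by -0.01 each.

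The 110 bases before the start of Ahrr (RefSeq GRCm38.p6, chr13:74292332-74292441, minus strand) are shown because it was the AhR target called. Capitals mark GCGTG, the core of the site that AhR is known to bind.
Ahrr: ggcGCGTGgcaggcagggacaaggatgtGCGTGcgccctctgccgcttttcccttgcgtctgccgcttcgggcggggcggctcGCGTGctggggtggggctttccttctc
GCGTG was found on either strand of 28.2% of all windows of 250 bases, 45.4% of those of DEGs that rose and 48.6% of those that fell.

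Among enzymes of xenobiotic handling, carboxylesterases and an epoxide hydrolase rose. Ces2e, which hydrolyses esters and amides of lipids and drugs, had 0.46, 0.90, 0.95, 0.86 and 1.22 in vehicle mice and 3.25, 3.18, 2.50, 3.51 and 3.71 in treated mice. Its groups were widely separated, with mouse 13 lowest among the treated, and the change was 2.35 (SE 0.19, limma adjusted p = 1.17e-06), or 5.11-fold. The other probe of Ces2e changed by 0.40 and was not called, and members of this gene family have similar sequences. Ephx1, the microsomal epoxide hydrolase that acts on epoxides of aromatic hydrocarbons, was the only called member of 19 phase II genes, with a rise of 0.81 (SE 0.09, limma adjusted p = 8.82e-05) by both of its probes and no overlap between groups. The median of the phase II list was -0.17 (0.09 with median centring). None of 21 NRF2 targets, genes of the oxidative stress response, was called, and their median of -0.15 turned to 0.11 with median centring. Their defining member Gclc, of glutathione synthesis, changed by -0.15 (adjusted p = 0.765). None of 17 P450 enzymes outside family 1 was called (median 0.02).

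Output genes of the circadian clock rose and 2 genes of the opposing arm fell. Dbp, a transcription factor that the clock drives directly, had the largest change among all named genes. Its log2 ratios were -0.67, -2.29, -0.32, -0.09 and -0.95 in vehicle mice and 1.43, 2.10, 1.99, 1.45 and 1.34 in treated mice. All treated mice lay above 1 and all vehicle mice below 0, and the change of 2.52 (SE 0.33, limma adjusted p = 3.24e-04) was 5.75-fold. All 14 output genes were higher on average, with a median of 0.47. Of the 14, 4 rose and none fell, against 0.49% of all genes that rose. Besides Dbp these were its relative Tef (0.73) and the nuclear receptors Nr1d2 (0.86) and Nr1d1 (0.77), which repress Arntl. With mouse 13 left out 3 of the 14 rose. Arntl (BMAL1) had 0.41, 0.94, 0.15, 0.16 and 0.36 in vehicle mice and -1.03, -1.01, -1.19, -0.70 and -0.89 in medium-dose mice, without overlap, and fell by 1.37 on the log2 scale (SE 0.22, limma adjusted p = 0.00242). Nfil3, which binds the same sites as Dbp and represses them, fell by 1.14 (SE 0.15, limma adjusted p = 3.91e-04), from -1.23 ± 0.41 to -2.37 ± 0.15 (SD, n = 5 each). These were the 2 decreases among 7 members of the positive arm, with a median of -0.13. Npas2 changed by -0.11 (adjusted p = 0.748). None of 12 glucocorticoid-responsive genes was called, and their median of -0.10 turned to 0.21 with median centring. Vehicle mouse 2 had the lowest Dbp and the highest Arntl and Nfil3. The hour at which each mouse was killed is not given in the sources used here, and its part in these values was not tested.

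The window of Nfil3 (RefSeq GRCm38.p6, chr13:52981040-52981149, minus strand) is shown as that of the clock gene that fell with the smallest p. Capitals mark the letters of TAGGTCA, the element that Nr1d1 and Nr1d2 are known to bind, and of CCAAT, both found here on the opposite strand.
Nfil3: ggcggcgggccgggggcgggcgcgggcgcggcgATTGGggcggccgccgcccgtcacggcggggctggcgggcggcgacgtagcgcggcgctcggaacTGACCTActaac
TAGGTCA stood in 2.23% of all windows of 250 bases. CACGTG, the element bound by Arntl with Clock, stood in 33.3% of the 15 windows of clock output genes and in 6.02% of all windows. Of the 5 windows of the 4 output genes called, 2 held CACGTG, and these were windows of Tef. The windows of Dbp, Nr1d1 and Nr1d2 did not hold it.

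Single genes of the vessel wall were called. Mmrn2, an extracellular matrix protein of endothelium that binds vascular growth factor, had 5.86, 5.56, 5.55, 5.71 and 5.80 in vehicle mice and 7.54, 7.52, 6.66, 7.59 and 8.34 in treated mice. Mouse 13 was lowest and mouse 15 highest of the treated mice, all of which lay above the vehicle range, and the change was 1.83 (SE 0.26, limma adjusted p = 6.82e-04), or 3.56-fold. Ddah1, which degrades an endogenous inhibitor of nitric oxide synthesis, rose from -0.89 ± 0.21 to 0.65 ± 0.12 (SD, n = 5 each), by 1.54 (SE 0.16, limma adjusted p = 2.31e-05) and by both of its probes. Of 26 genes of angiogenic signalling, 3 rose and none fell, against 0.49% of all genes that rose. These were Mmrn2, the lymphatic growth factor Vegfc (0.68) and the endothelial receptor Notch4 (0.59). The median of the 26 was 0.09, and with the slide as a block 1 was called. The vascular growth factor Vegfa changed by -0.23 (adjusted p = 0.285). Of 20 endothelial markers, the endothelin receptor Ednrb fell and none rose, whereas 2 rose without mouse 13 and 1 with median centring. Ednrb had 4.32, 4.41, 4.16, 4.01 and 4.59 in vehicle mice and 4.09, 2.92, 2.60, 3.26 and 2.44 in treated mice, so that mouse 11 overlapped the controls, and its called probe changed by -1.24 (SE 0.24, limma adjusted p = 0.00971). The median of the endothelial markers was 0.22 (0.34 without mouse 13, 0.42 with median centring and 0.05 with the slide as a block), and Pecam1 changed by 0.49 (adjusted p = 0.0785).

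The largest decrease was that of Car14, a membrane-bound carbonic anhydrase. Its log2 ratios were 2.76, 2.67, 2.11, 2.60 and 2.78 in vehicle mice and 1.25, 1.04, 0.69, 1.41 and 1.27 in medium-dose mice. The groups did not overlap, mice 3 and 13 of the same slide had the lowest value of their groups, and Car14 fell by 1.45 on the log2 scale (SE 0.14, limma adjusted p = 1.62e-05), to 0.366 of the vehicle level. It was the only called member of 13 carbonic anhydrases, whose median of -0.18 became 0.02 with median centring. Slc5a12, which takes up lactate and other short carboxylates, had 1.11, 1.08, 1.27, 0.62 and 2.67 in vehicle mice and 0.52, -0.02, 0.11, -0.21 and -0.06 in treated mice. Vehicle mouse 5 was far above the rest, the probe was well above background on 1 of the 5 treated arrays, and the change was -1.29 (SE 0.25, limma adjusted p = 0.00930).

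The remaining named decreases were smaller and included genes of matrix and cytoskeleton. Kif26b, a kinesin of developing tissues, fell by 0.94 on the log2 scale, and Mfap2, a component of elastic microfibrils, by 0.81 and by both of its probes. Chst1, a sulfotransferase for keratan sulfate, fell by 0.86, the neuronal ligand Nxph3 by 0.92, the synaptonemal complex gene Syce1 by 0.93, the cyclin J-like gene Ccnjl by 0.79 and Gm13889 by 0.90. Adm, the vasodilator adrenomedullin, fell by 0.85 (limma adjusted p = 0.0425) and was the only called member of 15 hypoxia-responsive genes (median -0.06, and 0.25 with median centring). With median centring the decreases of Car14, Arntl, Slc5a12 and Nfil3 were still called, and the 8 in this paragraph were not (all 8 kept a negative change). The calls of Syce1 and Adm were lost in 9 and 12 of the 17 alternatives, leaving out of single mice included, and those of Gm13889 and Chst1 without mouse 14 and without mouse 15 as well. The call of Slc5a12 was lost with only the arrays compared (adjusted p = 0.0512).

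Markers of B cells were higher on average. Of 12 B cell markers, 2 rose and none fell, against 0.49% of all genes that rose. On average 11 were higher, and the median was 0.64. By the brightest probe, 1 of the 12 had all treated mice above all vehicle mice, which 2.13% of all genes did. Cr2, the complement receptor of mature B cells, rose by 1.04 (SE 0.18, limma adjusted p = 0.00442), and the defining marker Ms4a1 (CD20) changed by 0.72 (adjusted p = 0.110). The mean log2 ratio of the 12 markers was 0.86 to 1.66 in vehicle mice and 1.67 to 2.19 in treated mice. With the slide as a block their median was 0.39, and with median centring it was 0.56 and 4 rose. Of 7 plasma cell markers, Pou2af1, a B cell coactivator, rose by 0.77, whereas Jchain, the joining chain of secreted antibodies, changed by -0.39 (adjusted p = 0.230). Of 10 genes of MHC class II presentation, which B cells express, H2-Ob rose by 0.83 and H2-DMb2 by 0.65 (median 0.19), and neither was called with the slide as a block. The share that B cells have in the class II values was not tested.

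Other immune lists showed few calls. Of 23 interferon-stimulated genes, Ifi44 fell by 0.68 (SE 0.16, limma adjusted p = 0.0333) and none rose, with a median of 0.03, and none was called with median centring. No DEG was found among 11 genes of MHC class I processing (median -0.04), 28 chemokines (-0.07), 18 complement genes (-0.16) and 27 interleukins and receptors (0.04). The T cell list (14 genes, 0.24), the NK cell list (10 genes, -0.33), macrophages and dendritic cells (16 genes, 0.07), neutrophils (11 genes, 0.28) and mast cells with platelets (11 genes, -0.08) held no DEG either. All 10 NK cell genes were lower on average. Without mouse 13, 1 gene rose in each of the T cell, neutrophil and mast cell lists and 2 interleukin genes fell.

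In metabolism, signalling and stress, the calls were single genes. Sqle, the squalene epoxidase of sterol synthesis, fell by 0.60 (SE 0.13, limma adjusted p = 0.0237) as the only called member of 17 (median -0.22, and 0.04 with median centring), and no member was called with median centring or with the slide as a block. The Wnt antagonist Nkd1 rose by 0.60 among 27 Wnt genes (median -0.16), the calcium pump Atp2a2 fell by 0.60 among 22 genes of calcium signalling and contraction (median -0.02), and the linker histone H1f2 rose by 0.75 among 9 histones measured (median 0.24). No Wnt gene rose with the slide as a block (1 fell), and no gene of the calcium list was called without mouse 13 or with median centring. None was called among 19 genes of capillary lipase and fatty acid handling (median -0.43), 19 of fatty acid oxidation (-0.04), 26 of the BMP and TGF-beta pathway (-0.05), 20 immediate early genes (-0.02) and 19 of heat shock and the unfolded protein response (-0.16). The structural cell lists held no DEG: alveolar type I cells (9 genes, -0.03), club cells (8 genes, -0.36), ciliated cells (13 genes, -0.11), smooth muscle and pericytes (12 genes, -0.19), fibroblasts and matrix (17 genes, -0.08), mesothelium (6 genes, -0.22), squamous epithelium (19 genes, -0.08), erythroid cells (9 genes, -0.02), hepatocytes (10 genes, -0.04), and cartilage with neuroendocrine cells (10 genes, -0.16).

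The medium dose was then placed among the other doses. Against the low dose of 25 mg/kg-bw/day (4 arrays) limma called no gene at the medium dose (0%), nor under any alternative setting run, and 2634 of 55681 probes (4.73%) had an unadjusted p under 0.05. Against the high dose of 100 mg/kg-bw/day (5 arrays), 87 genes differed (0.234%), 52 higher (0.14%) and 35 lower (0.0942%) at the high dose. That count was 44, 178 and 50 without high-dose mice 17, 18 and 20, respectively, and 53 without medium-dose mouse 11. Against vehicle, 167 genes were called at the low dose (0.449%), 157 higher (0.422%) and 10 lower (0.0269%). At the high dose 717 were called (1.93%), 507 higher (1.36%) and 210 lower (0.565%). The 3 comparisons with vehicle share the vehicle arrays, so the values are given side by side.

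Mitotic genes were lower at the high dose than at the medium dose. The mean log2 ratio of the 30 genes was -3.00 ± 0.13 (SD, n = 5) in vehicle, -2.11 ± 0.07 (n = 4) at the low, -2.40 ± 0.12 (n = 5) at the medium and -2.91 ± 0.28 (n = 5) at the high dose. Of the 30, 6 were called lower at the high dose than at the medium dose (0.0942% of all genes were) and none higher: Ccnb2, Ccna2, Birc5, Nusap1, Prc1 and Mki67. Mki67 was 1.03 lower on the log2 scale at the high than at the medium dose (difference -1.03, limma adjusted p = 0.0193), Ccna2 differed by -1.04 (0.00193) and Birc5 by -1.03 (0.0207). Spc25 changed by 2.38, 2.12 and 0.99 against vehicle over the rising doses, and its high and medium doses differed by -1.13 (limma adjusted p = 0.00167).

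Some p53 targets were higher at the high dose than at the medium dose. Cdkn1a changed by 1.66, 2.10 and 2.84 at the low, medium and high dose, although the medium and high doses did not differ by the test (limma adjusted p = 0.154). Gdf15 changed by 2.32 and 2.24 at the low and medium dose and was 0.86 higher at the high than at the medium dose, which did not pass (adjusted p = 0.280). Phlda3 was 0.77 higher at the high than at the medium dose (limma adjusted p = 0.0103), Tnfrsf10b 0.80 higher (0.00290) and Zmat3 0.65 higher (0.0118). The mitotic p53 target Ckap2 ran with the mitotic genes instead, at 1.77, 1.30 and 0.34 over the doses and -0.96 between high and medium (limma adjusted p = 0.00619).

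For the remaining groups the values over the doses were as follows. Cyp1a1 changed by -1.29, 0.20 and 4.47 at the low, medium and high dose, of which the last passed (limma adjusted p = 0.0202). Ahrr changed by 1.00, 1.52 and 3.14, and its high and medium doses differed by 1.62 with an adjusted p of 0.0970. Dbp changed by 2.22, 2.52 and 2.87, Arntl by -1.07, -1.37 and -1.75, Ces2e by 2.14, 2.35 and 2.65, and Car14 by -0.87, -1.45 and -2.07. For none of these 4 did the high and medium doses differ by the test (limma adjusted p between 0.0739 and 0.846).

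**Figure D4:**
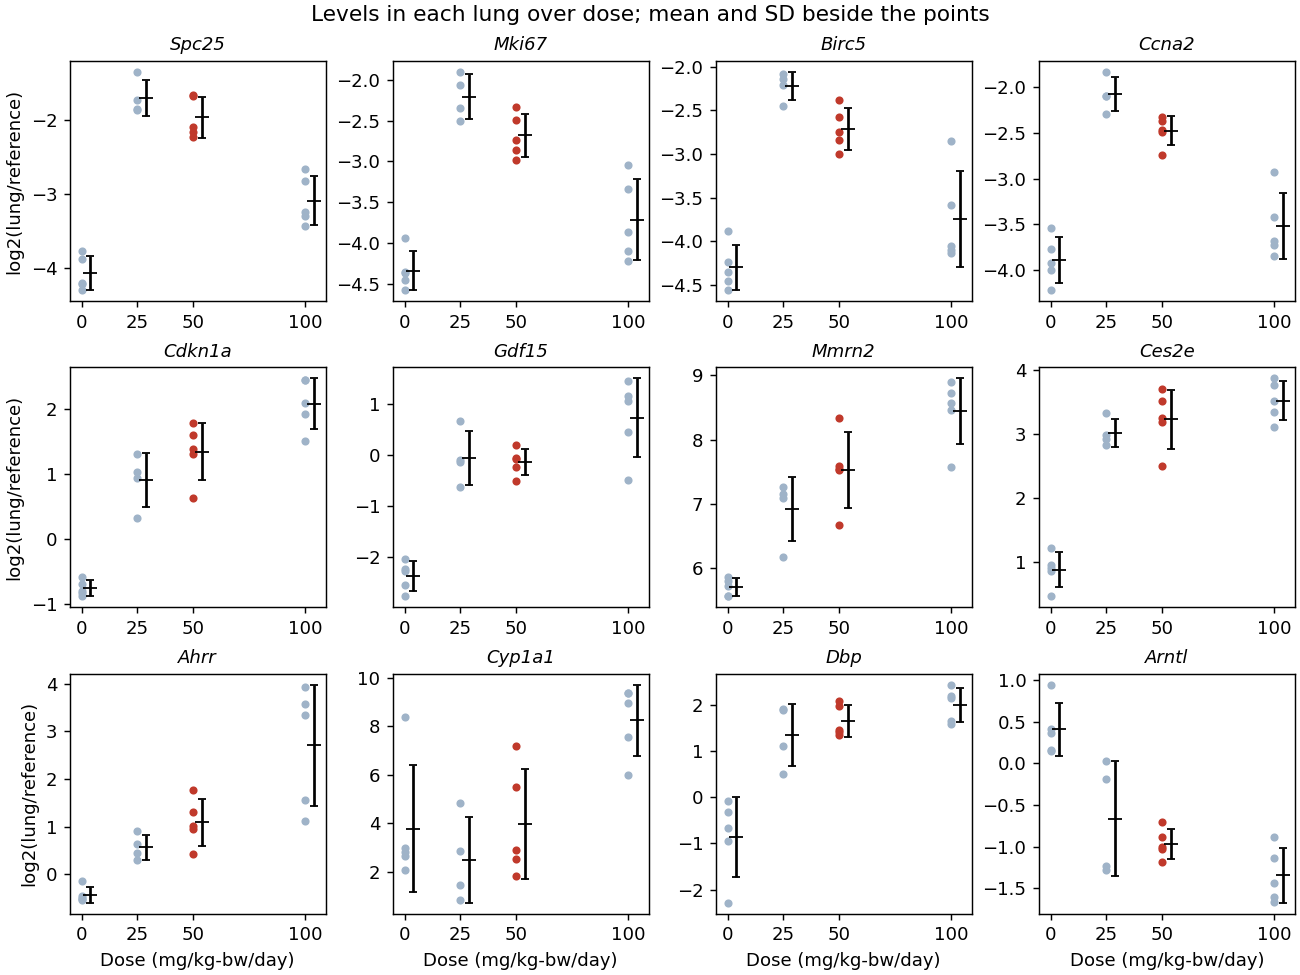
Log2 ratio of lung over reference RNA (y axis) against the dose in mg/kg-bw/day (x axis) for 12 genes, with a point per mouse (medium dose in red), and the mean and SD beside the points. Spc25, Mki67, Birc5 and Ccna2 lie lower at the high dose than at the medium dose, whereas Cdkn1a, Mmrn2 and Ahrr have their highest means at the high dose.

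The same mice gave forestomach and liver, where limma called no gene at the medium dose (0% in each). The study, by its own test and with the same thresholds, reports called genes in both tissues at this dose. It lists more of them in liver than in forestomach, and Dbp is among those of forestomach. The counts of 0 here therefore do not show that these tissues lacked a response. The reason for the difference from the study was not tested. In forestomach 3161 of 55681 probes (5.68%) and in liver 2523 (4.53%) had an unadjusted p under 0.05, against 7838 (14.1%) in lung. On 3 of the 10 liver arrays, which lay on 1 slide (vehicle mouse 5 and medium-dose mice 11 and 15), 10.8% to 12.5% of probes were well above background in Cy5, against 37.1% to 45.5% on the other 7. Its part in the count of 0 for liver was not tested. The difference between the tissues was tested directly, in a fit over all arrays of the series. That fit gives each probe the same variance in every tissue, and it includes the liver slide of low shares. For Mki67 the SE of lung minus forestomach was 0.78 in that fit, and 0.28 with the mouse as a block and liver left out. For Slc5a12 it was 0.25 and 0.28 in the same order. The part of the liver arrays in the calls and missed calls below was not tested. The medium-dose effect differed between lung and forestomach for 14 genes (0.0377% of all genes), with a more positive change in lung for 12 (0.0323%) and a more negative one for 2 (0.00538%), and between lung and liver for 15 (0.0404%), with 11 more positive (0.0296%) and 4 more negative (0.0108%) in lung. These splits depended on the slides. With the slide as a block 119 genes differed from forestomach (83 more positive and 36 more negative in lung) and 96 from liver (48 and 48). Without the liver slide of low shares, 134 differed from liver, of which 46 were more positive and 88 more negative in lung.

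Cdkn1a and Gdf15 differed from both tissues. Cdkn1a changed by 2.10 in lung, 0.16 in forestomach and 0.22 in liver, and the lung effect was larger by 1.94 (limma adjusted p = 1.96e-06) and 1.88 (4.90e-06). With the mouse as a replicate block the difference from forestomach still passed (3.96e-04), and that from liver just missed the threshold (0.0536). Gdf15 changed by 2.24, 0.28 and -0.04, a difference of 1.96 from forestomach (limma adjusted p = 0.0211, and 0.00343 with the block) and 2.28 from liver (0.00253, and 0.159 with the block). Slc5a12 fell more in lung than in forestomach by -1.26 (limma adjusted p = 0.0240, and 0.0934 with the block) and than in liver by -1.31 (0.0140, and 0.343 with the block).

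Ces2e and Ddah1 also differed from liver. Ces2e changed by 0.48 in forestomach and -0.34 in liver, and the lung effect exceeded that of liver by 2.70 (limma adjusted p = 0.0338, and 0.372 with the block). For Ddah1 the excess over liver was 1.74 (0.0178, and 0.159 with the block), and by a probe called for that contrast 1.51 over forestomach (limma adjusted p = 8.07e-04). Without the liver slide of low shares the liver differences of Cdkn1a, Gdf15, Slc5a12, Ces2e and Ddah1 all passed (limma adjusted p between 8.57e-06 and 0.0281). With median centring the differences of Cdkn1a from both tissues and of Slc5a12 from liver (0.0487) still passed. Those of Gdf15 were 1.89 from forestomach (limma adjusted p = 1.00) and 2.87 from liver (0.375), that of Slc5a12 from forestomach was -0.92 (0.421), and those of Ces2e and Ddah1 from liver were 3.20 and 2.17 (0.820 each), none of which passed. With it 13 genes differed from forestomach, all more positive in lung, and 12 from liver, of which 11 were more positive. With the mouse as a block 45 genes differed between lung and forestomach and none between lung and liver. Among the named genes, the block added calls against forestomach for Ces2e (difference 1.87, limma adjusted p = 5.68e-04), Spc25 (1.93, 9.93e-04), Mki67 (1.72, 0.0166), Ahrr (1.49, 0.0292), Mmrn2 (1.43, 0.0428), Car14 (-1.51, 0.0151) and Mfap2 (-1.06). In the fit over all arrays no clock gene was called different between the tissues. Dbp changed by 2.52 in lung, 1.83 in forestomach and 2.46 in liver, and the difference between lung and liver was 0.06 (limma adjusted p = 0.993). For Dbp, lung minus forestomach was 0.69, with an SE of 0.66 in that fit and 0.32 with the mouse as a block. It passed in neither.

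**Figure D5:**
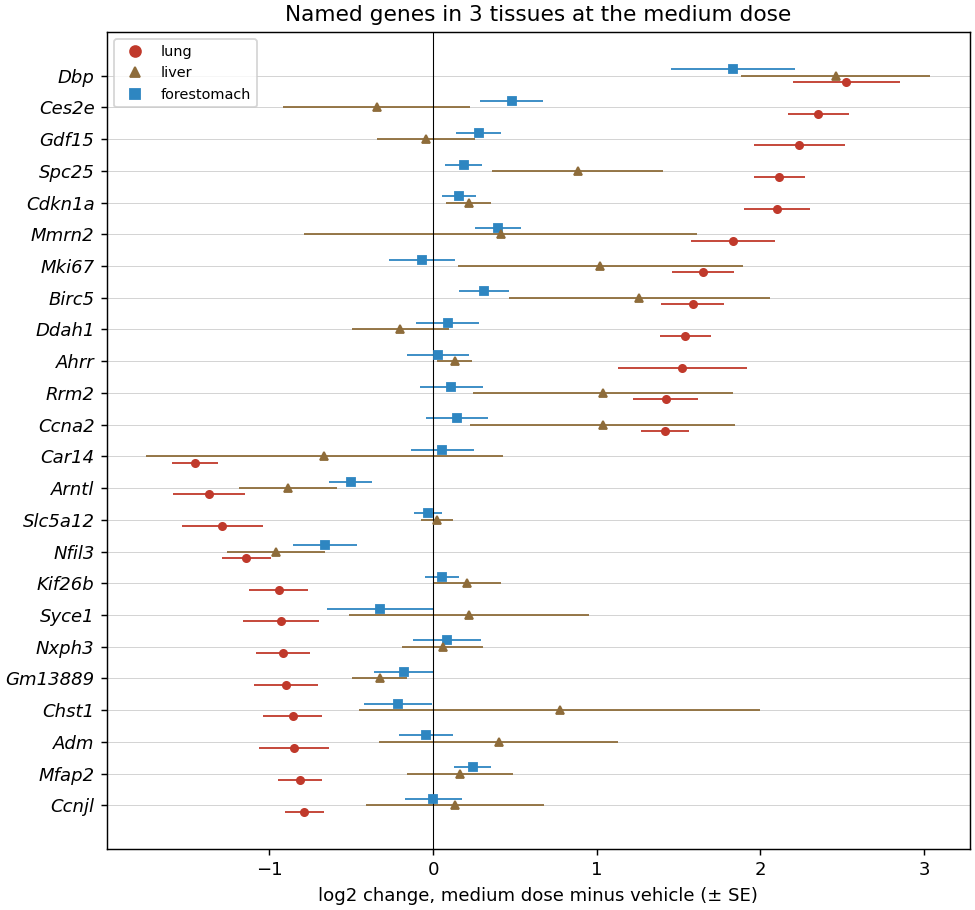
Log2 change at the medium dose against vehicle (x axis; bars are SE of the fit within each tissue) of the 24 named genes in lung (red circles), liver (brown triangles) and forestomach (blue squares). Cdkn1a and Gdf15 stand at 2.10 and 2.24 in lung and near 0 elsewhere, whereas Dbp is at 1.83 or above in all 3 tissues.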

How the data were processed

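Total lung RNA of each mouse was hybridized with reference RNA to Agilent SurePrint G3 Mouse arrays. The deposited scanner files hold spot intensity and local background in both dyes, extracted by the authors with Feature Extraction 10.7.3.1 and neither corrected nor normalized. The authors also deposited a table of normalized log2 ratios, whose lung columns correlated with the values used here at r between 0.995 and 0.999 across probes, and which was used as an alternative. As in the study, median intensities entered without background subtraction, and loess within each array was applied to their log2(Cy5/Cy3). Control spots and spots with outlier marks were left out (102 values missing over the 19 lung arrays), repeated spots were averaged, and 55681 probes remained. The files state mm9; 26413 probes were named by accession through a RefSeq table (GRCm38.p6), which gave 37163 genes or transcripts with the names the files hold for the rest.

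All 19 lung arrays (4 dose groups) were fitted together with limma 3.58.1 in R 4.3.3, in place of the MAANOVA test of the study, and adjusted p-values are Benjamini-Hochberg values over all probes. A gene was a DEG when any probe passed an adjusted p of 0.05 and 1.5-fold. Of 84 DEGs with more than 1 probe, 16 had every probe called and 11 had a probe moving the other way. List medians use a gene's brightest probe. Differences between tissues were tested in a fit over all 59 arrays, without a block in the fit reported first. The tissues of a mouse carry its number in the labels and are therefore paired, and the correlation of their deviations from the group means was -0.06 to 0.14 for forestomach and -0.29 to 0.21 for liver (10 mice each). The scripts were tested on simulated data.

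The named genes are the 12 largest increases and 12 largest decreases among DEGs that have a symbol, are well above background on every array of either group, have separated groups and have no brighter probe moving the other way. In addition, list members were named if called (the 4 of smallest p where more than 4 were) or if first in their list. The members and the 51 lists (821 entries measured) were chosen with earlier results of these data known, and these are no independent support. Alternatives were median centring, normexp with an offset of 50, the deposited table, array weights, a filter on dim probes, the slide or the mouse as a block, other thresholds and leaving out each mouse. Separate mice are the replicates. Some results are not reported here. Figures were drawn with matplotlib.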

Additional observations from a re-analysis of the deposited data

Results flagged for a closer look

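Among 52 sets of 5 values tested for a sample far from the rest, 5 had one, and chance sets apart about 1 in 20. Mouse 13 of the medium dose stood apart in the share of its probes that were well above background, in Cy5 (68.8%) and in Cy3 (77.0%). In vehicle lungs, mouse 2 stood apart for Ahrr (log2 ratio -0.14) and Ccnjl (-0.94), both of them the highest vehicle value, and mouse 3 for Car14 (2.11), the lowest.

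The medium-dose change differed between tissues for 5 named genes by the test of the difference itself. Lung minus forestomach was 1.96 for Gdf15, 1.94 for Cdkn1a and -1.26 for Slc5a12 on the log2 scale. Lung minus liver was 2.70 for Ces2e, 2.28 for Gdf15, 1.88 for Cdkn1a, 1.74 for Ddah1 and -1.31 for Slc5a12, and none of the liver differences passed with the mouse as a block.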

How the results depend on the processing

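Over the alternatives run, the count for the medium dose against vehicle was 160 to 338 with single mice left out, against 237. It was 369 with median centring (98.6% of calls upward, against 76.8%), 990 with no minimum fold and 123 at an adjusted p of 0.01. For the named genes, 364 alternative results kept the call, 44 lost it and 0 reversed. High dose against medium dose (87) gave 40 with median centring, 56 with only the arrays compared, 138 with no minimum fold, 43 at an adjusted p of 0.01 and 44 to 178 with single mice left out. Medium dose against low dose gave 0 throughout. No paired analysis was possible because medium-dose and vehicle lungs share no mouse numbers. Between tissues of the same mice, counts changed with the mouse as a replicate block. That fit also leaves out the third tissue, and the parts of pairing and of that tissue were not tested. Lung minus forestomach rose from 14 to 45 and lung minus liver fell from 15 to 0. With the slide as a block these were 119 and 96. With single mice left out they were 7 to 21 (9, 9 and 7 without mice 4, 11 and 14) and 7 to 26 (7, 9, 26, 9 and 7 without mice 1, 3, 5, 11 and 15). Leaving out the liver slide of lowest shares above background, an alternative chosen after seeing the data like the counts per list, gave 134. The difference in the share of probes above background was 2.16 to 7.37 points with single mice left out. Of the list medians under alternatives, 850 moved by less than 1 SD between mice and 34 by more, 28 of these with median centring. The cause of these shifts was not tested. With 5 arrays a group, and probes near background in vehicle lungs (Cdkn1a, Ahrr) or treated lungs (Slc5a12), the number of arrays and the signal over background limit the sizes given.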

Other observations

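The genes below are outside the naming rule and were chosen after their values were seen. Among the DEGs were further genes of vessels and matrix. Lama1, a laminin of basement membranes, rose by 1.62 on the log2 scale (SE 0.38, limma adjusted p = 0.0302), with mouse 13 (2.05) below vehicle mouse 2 (2.74). Ackr3, a scavenging chemokine receptor, rose by 1.33 and had all treated mice (1.22 to 2.63) above all vehicle mice (0.52 to 0.93). Lyve1, a hyaluronan receptor of lymphatic vessels, rose by 1.31, from 6.54 ± 0.60 to 7.86 ± 0.56 (SD, n = 5 each), and mouse 13 overlapped the vehicle mice. Sema3c, a guidance ligand, rose by 1.28 by both of its probes, and the receptor partner Ramp3 by 1.17.

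Btla, an inhibitory receptor of lymphocytes, had log2 ratios of 1.71, 2.12, 1.57, 2.24 and 2.29 in vehicle mice and 3.35, 3.12, 3.17, 3.03 and 3.67 in treated mice. It rose by 1.28 (SE 0.18, limma adjusted p = 7.51e-04). The change in lung exceeded that in forestomach by 1.35 (limma adjusted p = 3.92e-04, and 0.0259 with the mouse as a block) and that in liver by 1.20 (0.00328, and 0.159 with the block).

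Besides Ces2e, 2 carboxylesterases of the same family were called. Ces2c rose by 1.42 (limma adjusted p = 0.00342) through 1 of its 3 probes, and Ces2b by 1.12 (limma adjusted p = 0.0249). At the high dose Ces2c stood 1.80 above vehicle, whereas Ces2b stood at -0.07 and was lower than at the medium dose by -1.18 (limma adjusted p = 0.0480). These genes are similar in sequence, and how the probes divide their transcripts was not tested.

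Of the DEGs, 42 had no symbol. An interval that the array files name as a transcript at chr17:29183003-29217681 (mm9) had -0.32, -0.30, -0.19, -0.24 and -0.20 in vehicle mice and 0.70, 0.74, 0.40, 0.60 and 0.93 in medium-dose mice, and rose by 0.93. Another at chr17:29374758-29387733 (mm9) rose by 0.86 through 1 of its 5 probes, whereas its brightest probe changed by -0.11. The change of the called probe exceeded forestomach by 0.90 (limma adjusted p = 0.00253) and liver by 1.02 (2.53e-04, and 0.217 with the mouse as a block). Cdkn2a, the tumour suppressor locus of p16 and p19, fell by 0.94 by 1 of 2 probes (limma adjusted p = 0.0443), with mouse 13 (-3.97) inside the vehicle range of -4.26 to -3.74.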
